A study of Mus musculus with 37 samples.

Results

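The metabotropic glutamate receptors measured here were 6 genes, Grm2, Grm3, Grm4, Grm5, Grm7 and Grm8, of the 18193 genes with a single symbol on the array. They were taken by symbol, with every probe set that carried 1 of these symbols alone, which gave 9 probe sets of 34945. Grm5 had 2 probe sets, Grm7 had 3 and the other genes had 1 each. A further probe set that shares Grm2 with another symbol was left out, and other receptors of the family are not analysed here.

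Metabotropic glutamate receptors are G protein-coupled receptors that tune synapses more slowly than the ion channels opened by glutamate. Group I receptors, represented by Grm5, act through Gq and phospholipase C and sit mainly on the postsynaptic side. Group II (Grm2, Grm3) and group III (Grm4, Grm7, Grm8) receptors act through Gi and Go proteins, lower cyclic AMP and restrain transmitter release. In forebrain Grm3 and Grm5 are known from astrocytes as well as from neurons, and Grm7 lies at the active zone of presynaptic terminals.

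The samples were temporal lobes of mice, dissected under a microscope and frozen, with Trizol RNA labelled by a one-cycle kit and read on Affymetrix mouse arrays. The 4 groups were 10 arrays of mice lacking Wfs1 (KO) on the background the titles call 129 (129SV in the strain field and 129S6 in the series design), 9 arrays of wild-type (WT) 129 mice, 9 of KO mice on the C57 background (C57B6 in the design), and 9 of WT C57 mice. Wfs1 encodes wolframin, a membrane protein of the endoplasmic reticulum. The labels say neither how the allele was made nor the sex, age, litter or hybridization day, and nothing in them ties an array to an animal. P-values therefore measure only the spread between these samples, which may be technical. Every sample carries a number in its title, whose meaning the labels do not give. Each group was also divided into its higher and its lower numbers, 18 and 19 arrays in all.

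Values are log2 signals of probe sets as deposited, with array medians between 4.30 and 4.36, so a difference of 1 is a doubling of signal. They are not scaled to a common level between probe sets, and the signals of different receptors are not ranked. Wfs1 (1448411_at) averaged 3.11 ± 0.28 in 129 KO (SD, n = 10) and 9.33 ± 0.12 in 129 WT (SD, n = 9), and 3.03 ± 0.26 in C57 KO and 9.32 ± 0.17 in C57 WT (SD, n = 9 each). All arrays matched their genotype label. Markers of excitatory forebrain neurons (Camk2a at a mean signal of 11.50, Slc17a7 at 8.02), of striatum (Penk at 10.44, Drd1 at 8.14), of interneurons (Gad1 at 10.88) and of astrocytes (Slc1a2 at 11.83) were detected. The dentate gyrus and cerebellar lists were split by the limit for testing given next. Below it lay Prox1, Dsp, Tdo2 and Lct of dentate gyrus and Cbln3 and Gabra6 of cerebellum. Above it were C1ql2 at 4.12 and Pdzd2 at 7.02 of the dentate list. So were Pax6 at 5.40, Cbln1 at 5.70 and Neurod1 at 6.08 of the cerebellar list. In this bulk tissue, fewer cells of a type and less RNA per cell cannot be told apart.

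Of the 9 receptor probe sets, 8 reached a mean signal of 3.60 in at least 1 group, the 40th percentile of all probe set means, and were tested among 27647 probe sets. The third Grm7 probe set (1459532_at) stayed between 2.16 and 3.11 on all 37 arrays and was not tested.

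None of the receptors passed the test between KO and WT lobes in either strain. In 129 mice 0 of 8 probe sets were called, against 0.00362% of all probe sets tested. In C57 mice 0 of 8 were called, against 0.105% of all, and over both strains 0 of 8, against 0.0326%. The difference between the KO effects of C57 and 129 was called for 0 of 8, against 0.0326% of all. Calls are limma tests, 2-sided, at a Benjamini-Hochberg adjusted p under 0.05 over all probe sets tested. At an unadjusted p under 0.05 there was 1 of the 8 over both strains and none within 129, within C57 or for the difference. Of all 27647 probe sets, 1269 had such a p over both strains, 623 within 129, 1556 within C57 and 898 for the difference. The median KO minus WT difference over the 8 probe sets was -0.01 in 129 and 0.04 in C57, beside -0.004 in 129 and 0.009 in C57 over all probe sets. In each strain the 95% interval of 6 of the 8 differences lay within 0.5 of 0 on the log2 scale. The exceptions in both strains were Grm3 and the Grm5 probe set 1456119_at.

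**Figure D1:**
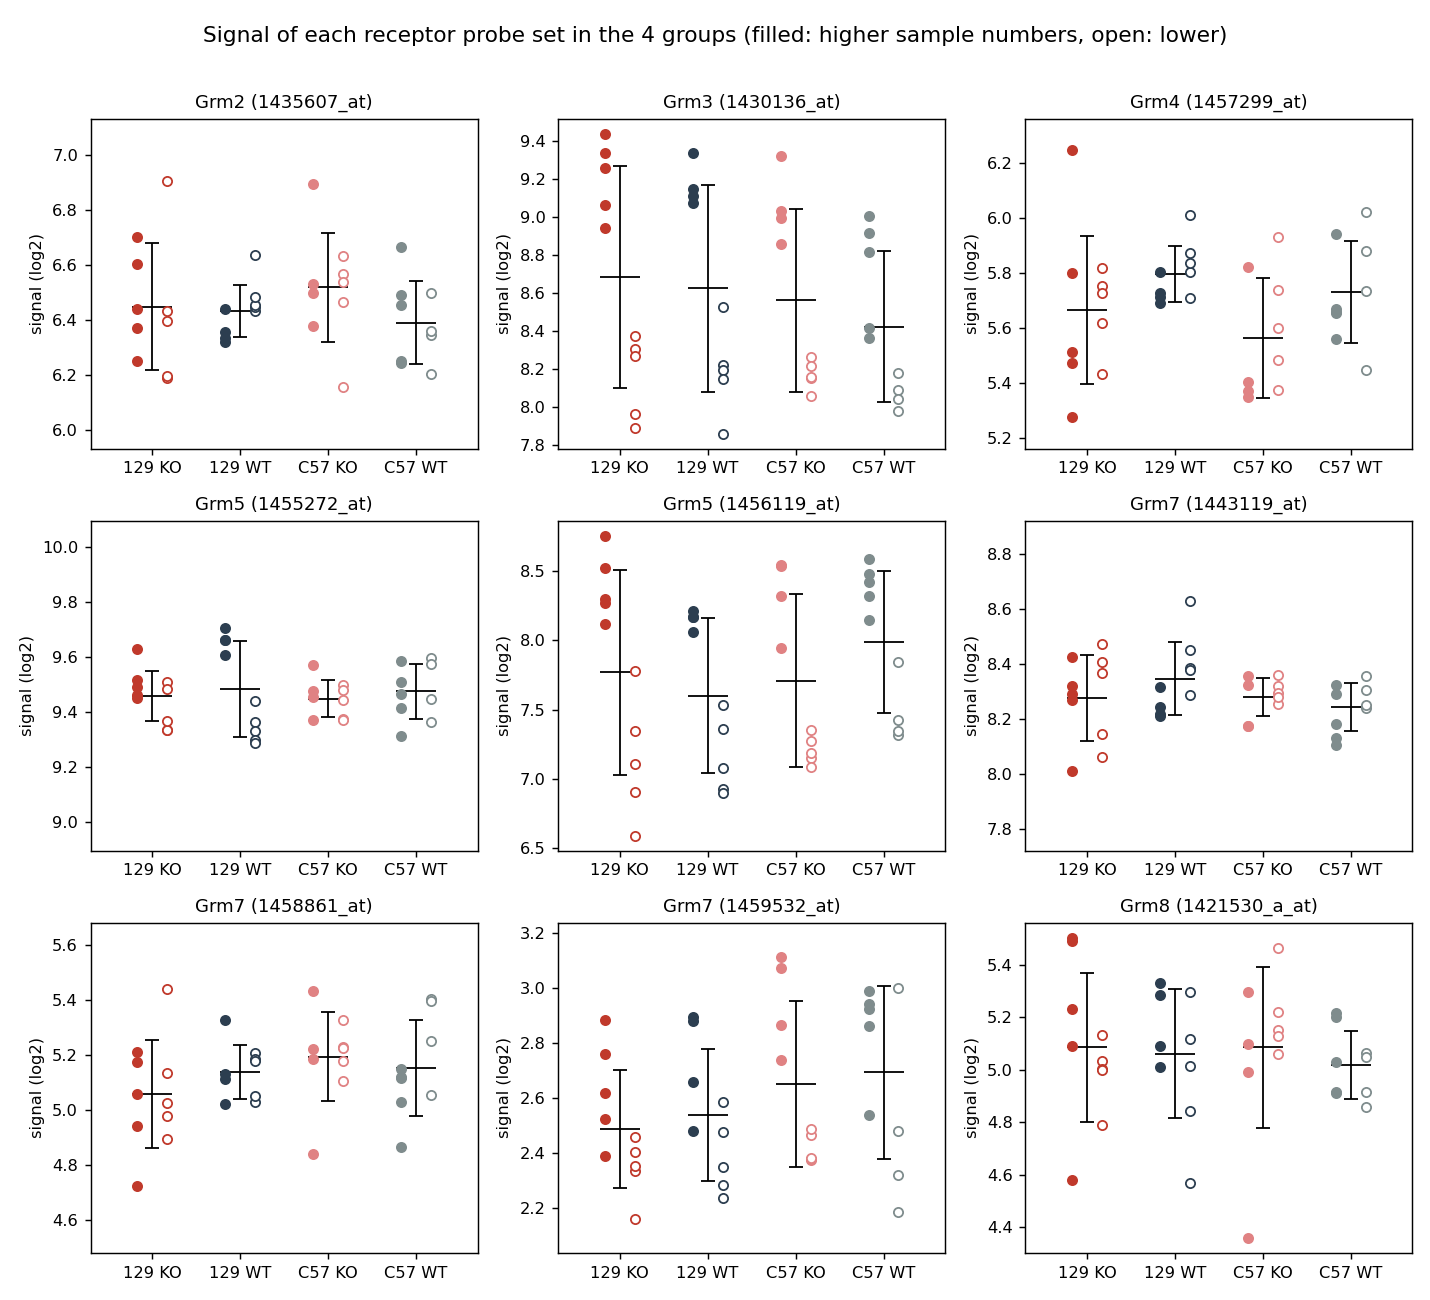
Signal (log2) of the 9 receptor probe sets on 37 arrays, in 129 KO, 129 WT, C57 KO and C57 WT. Filled points are the higher and open points the lower sample numbers of a group, and lines show the group mean ± SD. KO and WT ranges overlap in every panel, while filled and open points separate in all groups for Grm3 and for Grm5 1456119_at. The share of all probe sets that separate in this way is not given here.

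Grm5, the group I receptor, was read by a pair of probe sets. On 1455272_at the lowest, median and highest signals were 9.33, 9.47 and 9.63 in 129 KO, against 9.29, 9.44 and 9.70 in 129 WT. They were 9.37, 9.45 and 9.57 in C57 KO, against 9.31, 9.46 and 9.60 in C57 WT. The groups overlapped almost completely, and KO minus WT was -0.03 (SE 0.06) in 129 and -0.03 (SE 0.06) in C57, with adjusted p of 0.999 in each. On 1456119_at the values spread far wider, with 6.59, 7.95 and 8.75 in 129 KO against 6.90, 7.53 and 8.22 in 129 WT. In C57 they were 7.09, 7.35 and 8.54 in KO against 7.32, 8.15 and 8.59 in WT. KO minus WT on this probe set was 0.17 (SE 0.27) in 129 and -0.28 (SE 0.28) in C57, neither of which passed the test, and the 95% interval in C57 reached from -0.84 to 0.28.

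Of the group II receptors, Grm2, a presynaptic autoreceptor, averaged 6.45 ± 0.23 in 129 KO (SD, n = 10) and 6.43 ± 0.10 in 129 WT (SD, n = 9). In C57 it averaged 6.52 ± 0.20 in KO and 6.39 ± 0.15 in WT (SD, n = 9 each). The KO minus WT difference was 0.02 (SE 0.08) in 129 and 0.13 (SE 0.08) in C57, with adjusted p of 0.999 and 0.972. Grm3 had lowest, median and highest signals of 7.89, 8.66 and 9.44 in 129 KO, against 7.86, 8.52 and 9.34 in 129 WT. In C57 they were 8.06, 8.26 and 9.32 in KO, against 7.98, 8.36 and 9.00 in WT. The ranges overlapped in both strains, and the differences of 0.06 (SE 0.22) in 129 and 0.14 (SE 0.23) in C57 were smaller than their errors. These errors include the spread between higher and lower sample numbers, and a fit with the number set as a block is given below. Grm3 lies on the chromosome that carries Wfs1, where the alleles around the targeted locus and the loss of Wfs1 cannot be told apart.

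Among group III receptors, Grm4 came nearest to a difference by genotype. Its lowest, median and highest signals were 5.28, 5.67 and 6.25 in 129 KO, against 5.69, 5.80 and 6.01 in 129 WT. They were 5.35, 5.48 and 5.93 in C57 KO, against 5.45, 5.67 and 6.02 in C57 WT. KO medians were the lower in both strains but the ranges overlapped. Over both strains KO minus WT was -0.15 (SE 0.07), with an unadjusted p of 0.0318 and a limma adjusted p of 0.9998. It was -0.13 (SE 0.09) in 129 and -0.17 (SE 0.10) in C57. All 8 tested striatum markers had lower mean signals in KO than in WT in both strains, with median differences of -0.16 in 129 and -0.40 in C57, and 0 of 8 were called in either. At an unadjusted p under 0.05 there were 0 of the 8 in 129, beside 623 of 27647 over all probe sets, and 8 of the 8 in C57, beside 1556 of 27647, where the smallest adjusted p of the 8 was 0.178. The mean signal over these markers ranged from 8.06 to 8.81 in 129 KO and from 8.39 to 8.96 in 129 WT, and from 7.93 to 8.96 in C57 KO and from 8.18 to 9.27 in C57 WT. Their part in the Grm4 values was not tested. Grm7, the release-site receptor, averaged 8.28 ± 0.16 in 129 KO and 8.35 ± 0.13 in 129 WT on 1443119_at (SD, n = 10 and 9), and 8.28 ± 0.07 in C57 KO and 8.24 ± 0.09 in C57 WT (SD, n = 9 each). Its second probe set 1458861_at lay between 4.72 and 5.44 on all arrays, with differences of -0.08 (SE 0.08) in 129 and 0.04 (SE 0.08) in C57. Grm8 averaged 5.09 ± 0.28 in 129 KO (SD, n = 10) and 5.06 ± 0.24 in 129 WT (SD, n = 9), and 5.09 ± 0.31 in C57 KO and 5.02 ± 0.13 in C57 WT (SD, n = 9 each). None of the Grm7 and Grm8 differences passed the test.

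**Figure D2:**
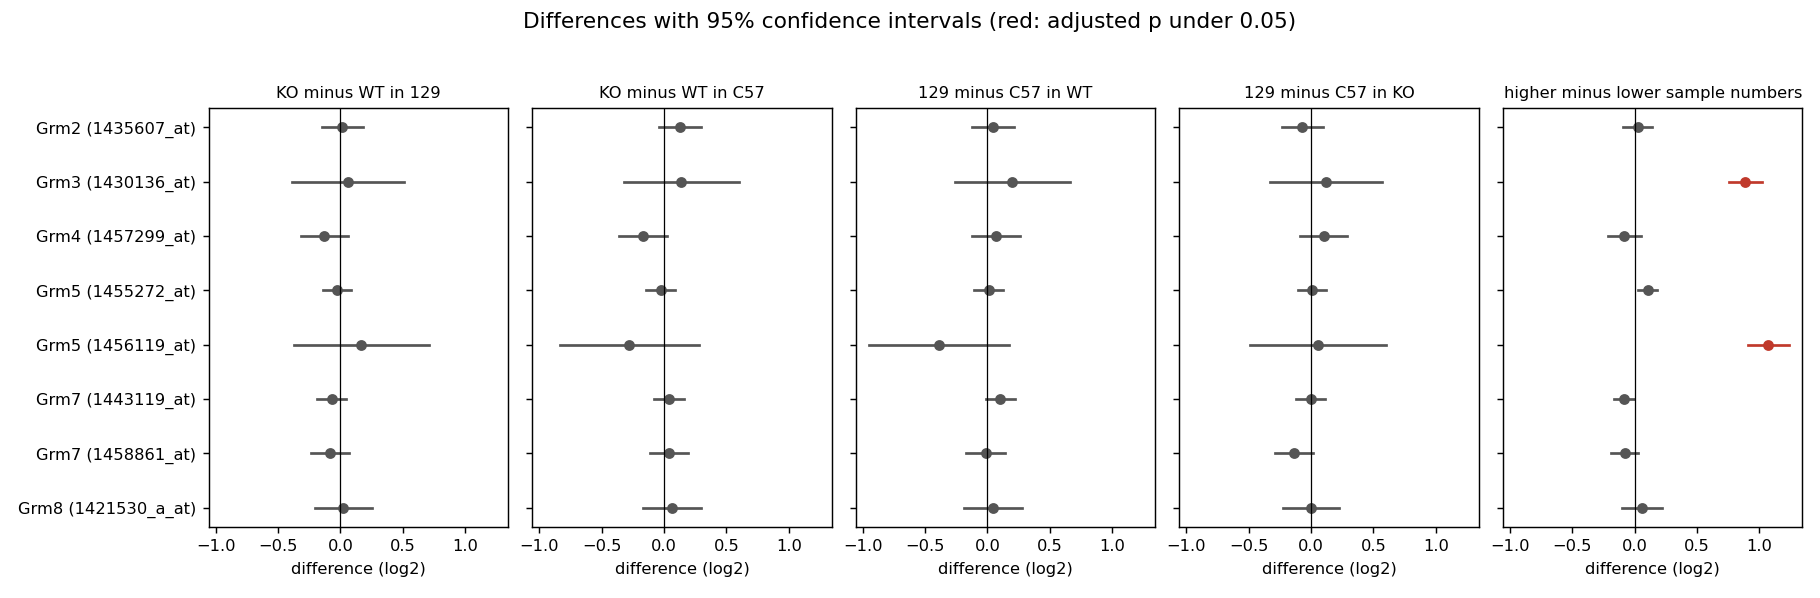
Differences in log2 signal for the 8 tested probe sets in 5 comparisons; points are limma estimates, lines are 95% confidence intervals and red marks an adjusted p under 0.05. Intervals cross 0 in the genotype and strain panels, and those of Grm3 and Grm5 1456119_at are the widest there; with sample number these lie at 0.89 and 1.07.

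No receptor passed the test between strains. Between 129 and C57 mice 0 of 8 probe sets were called in KO, against 3.43% of all probe sets tested, and 0 of 8 in WT, against 2.52%. No receptor had an unadjusted p under 0.05 in either comparison, beside 3589 of all 27647 probe sets in KO and 3438 in WT. This fit has no term for sample number. With the number set in the model, Grm3 in WT had a limma unadjusted p of 0.00311 and an adjusted p of 0.0808. Grm5 1456119_at in WT then had 0.0265 and 0.279, as given below. The smallest adjusted p was 0.479 in KO, for Grm7 1458861_at at -0.14 (SE 0.08), and 0.507 in WT, for Grm7 1443119_at at 0.10 (SE 0.06). The largest difference in size was that of Grm5 1456119_at in WT, at -0.39 (SE 0.28), where means were 7.60 ± 0.56 in 129 WT and 7.99 ± 0.51 in C57 WT (SD, n = 9 each).

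With sample number, by contrast, a pair of receptors moved. Grm3 and Grm5 1456119_at were higher on arrays with higher numbers, so that 2 of 8 probe sets were called, beside 12.7% of all probe sets tested. Of those 3523 probe sets, 2068 were higher and 1455 lower. The division into number sets was first drawn in an earlier analysis of these arrays from the values of a small set of genes, and it is not known here whether receptors were among them. In each group it follows the number alone, apart from which side the middle array of the 3 groups of 9 falls on. The p-values for sample number take this division as given.

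Grm3 showed the division in all 4 groups. In 129 KO it read 9.26, 9.06, 8.94, 9.33 and 9.44 on the higher numbers, against 8.30, 7.89, 7.97, 8.37 and 8.27 on the lower. In 129 WT it read 9.07, 9.34, 9.14 and 9.11 on the higher numbers, against 8.52, 7.86, 8.22, 8.19 and 8.15 on the lower. The number sets did not overlap in these groups. In C57 KO it read 9.32, 8.86, 8.99 and 9.03 on the higher numbers, against 8.15, 8.26, 8.06, 8.21 and 8.16 on the lower. In C57 WT it read 8.82, 8.91, 8.36, 9.00 and 8.42 on the higher numbers, against 8.09, 8.18, 8.04 and 7.98 on the lower. C57 WT arrays 37 and 42 were the lowest of the higher-numbered arrays, still above the 4 lower-numbered arrays of their group. The difference over all groups was 0.89 (SE 0.07, 95% interval 0.76 to 1.02, limma adjusted p = 2.00e-13), a 1.85-fold higher signal, and it was seen in 4 of 4 groups. The set accounted for 84.3% of the variance of Grm3 within groups, and the SD within groups was 0.21 with the set in the model, against 0.51 without it.

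Grm5 gave different answers on its probe sets. On 1456119_at, 129 KO read 8.52, 8.12, 8.27, 8.30 and 8.75 on the higher numbers, against 7.78, 7.11, 6.91, 6.59 and 7.35 on the lower. In 129 WT the values were 8.17, 8.06, 8.17 and 8.22 on the higher numbers, against 7.53, 6.93, 7.08, 6.90 and 7.36 on the lower. The number sets did not overlap in either group. In C57 KO the values were 8.54, 8.32, 7.94 and 8.53 on the higher numbers, against 7.35, 7.15, 7.09, 7.19 and 7.28 on the lower. In C57 WT they were 8.42, 8.48, 8.32, 8.59 and 8.15 on the higher numbers, against 7.32, 7.85, 7.42 and 7.35 on the lower. Over all groups the highest lower-numbered array, 7.85, lay below the lowest higher-numbered array, 7.94. The difference was 1.07 (SE 0.08, 95% interval 0.91 to 1.24, limma adjusted p = 3.35e-13), a 2.10-fold higher signal, and the set accounted for 83.4% of the variance within groups.

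On the other Grm5 probe set, 1455272_at, the difference was 0.10 (SE 0.04, 95% interval 0.03 to 0.18), with an unadjusted p of 0.00744 and an adjusted p of 0.0555, which missed the threshold. The number sets overlapped in 129 KO, C57 KO and C57 WT. In 129 WT they did not, with 9.66, 9.61, 9.70 and 9.66 on the higher numbers, against 9.36, 9.33, 9.44, 9.30 and 9.29 on the lower. Taken within each array, 1456119_at minus 1455272_at averaged -1.19 ± 0.25 on higher numbers (SD, n = 18) and -2.18 ± 0.26 on lower numbers (SD, n = 19). The ranges, -1.55 to -0.76 and -2.77 to -1.73, did not overlap. The probe sets therefore changed unequally with sample number, and which transcripts or exons each one reads was not examined here.

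**Figure D3:**
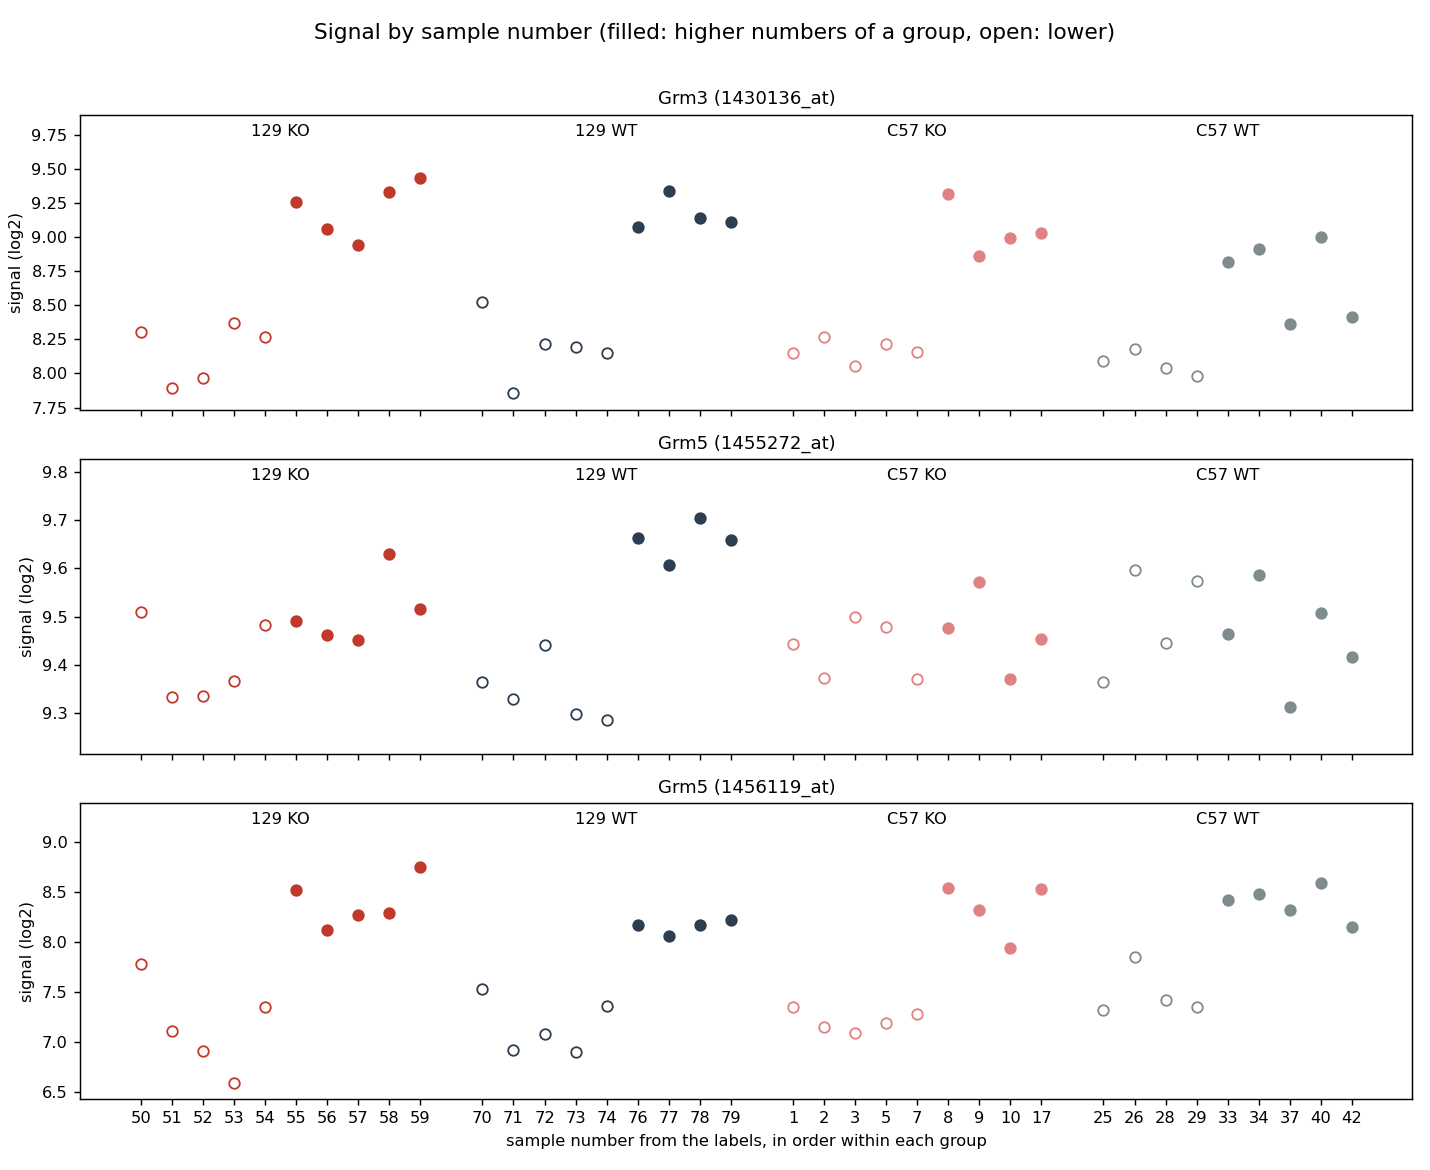
Signal (log2) of Grm3 and of both Grm5 probe sets against the sample number, in order within 129 KO, 129 WT, C57 KO and C57 WT; filled points are the higher and open points the lower numbers of a group. Grm3 and Grm5 1456119_at step up between the lower and the higher numbers in each group, and Grm5 1455272_at does so in 129 WT.

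The size of the step was also read within each group, as a description with no p, since the number sets had already been seen not to overlap there. The Grm3 differences were 1.05 in 129 KO, 0.98 in 129 WT, 0.88 in C57 KO and 0.63 in C57 WT. Those of Grm5 1456119_at were 1.24, 0.99, 1.12 and 0.91 in the same order of groups.

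Whether the step differed between strains or genotypes was tested in a limma model with a mean for each number set in each group. Between strains 0 of 8 receptor probe sets were called, against 0.452% of all, and between genotypes 0 of 8, against 0% of all, where 950 of the 27647 had an unadjusted p under 0.05. Grm5 1455272_at had the smallest p for strain, with a step 0.21 larger in 129 than in C57 (SE 0.06, unadjusted p = 0.00185, adjusted p = 0.123). For strain, 1 of the 8 had an unadjusted p under 0.05, beside 3808 of the 27647. For Grm3 the step was 0.26 larger in 129 (SE 0.13, adjusted p = 0.366).

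The remaining receptors showed small differences with sample number, and none passed the test. For the group II receptor Grm2, signals averaged 6.46 ± 0.17 on higher numbers (SD, n = 18) and 6.44 ± 0.18 on lower numbers (SD, n = 19), a difference of 0.02 (95% interval -0.09 to 0.14). The interval of its group II partner Grm3, 0.76 to 1.02, lay above that of Grm2. The group III receptors Grm4, Grm7 (1443119_at), Grm7 (1458861_at) and Grm8 differed by -0.08, -0.08, -0.08 and 0.06, with standard errors from 0.04 to 0.08. Of these, Grm7 1443119_at had an unadjusted p of 0.0459 and an adjusted p of 0.182. The dim Grm7 probe set 1459532_at was 0.38 (SE 0.06) higher on higher numbers, in the opposite direction to its brighter partners, at signals below the limit for testing. With no filter on low signals its adjusted p was 1.18e-05.

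**Figure D4:**
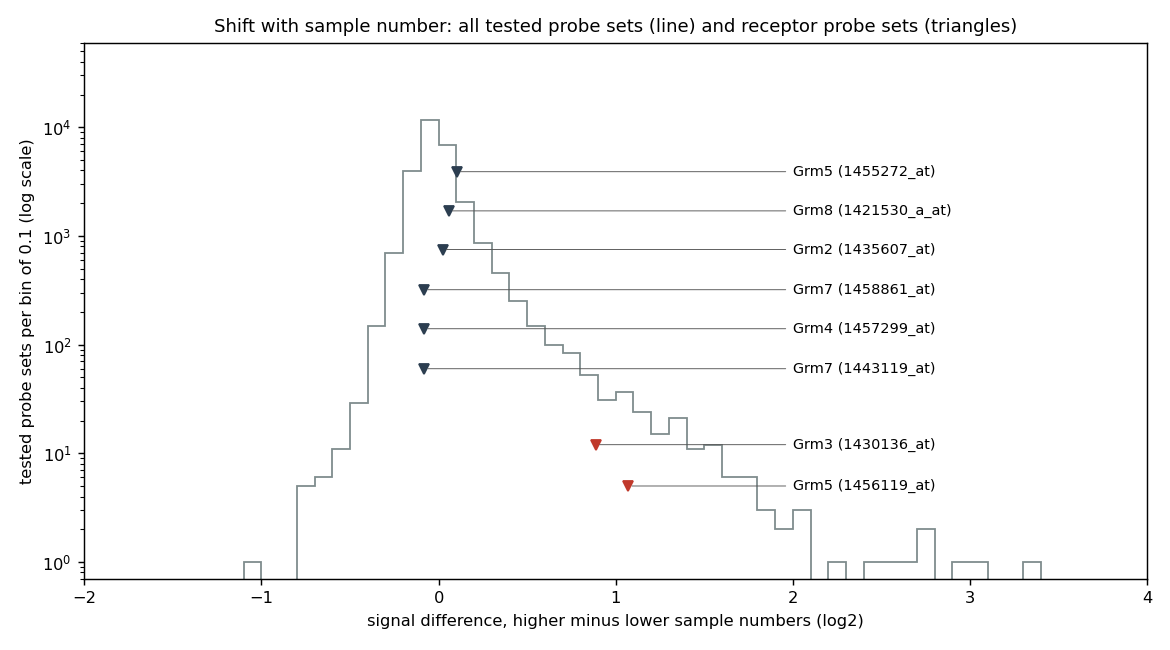
Distribution of the difference in log2 signal between higher and lower sample numbers over 27647 tested probe sets (line, counts on a log scale) with the 8 receptor probe sets as triangles, placed at arbitrary heights and coloured red where the adjusted p was under 0.05. Grm5 1456119_at ranks 122 and Grm3 ranks 185 from the largest rise, and the other 6 lie within the bulk.

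Grm5 1456119_at had the 122nd and Grm3 the 185th largest rise of the 27647 probe sets, so each lay in a tail shared with many other genes. The actin control difference between its 3′ and 5′ probe sets, a sign of RNA integrity and labelling, averaged 1.18 ± 0.26 on higher numbers (SD, n = 18) and 1.43 ± 0.38 on lower numbers (SD, n = 19). With it as a covariate the step was 0.86 (SE 0.07) for Grm3 and 1.04 (SE 0.09) for Grm5 1456119_at, both called. The part of RNA integrity and labelling in the step cannot be told from this control alone and was not tested. The mean over 10 astrocyte markers ranged from 8.65 to 8.92 on higher numbers and from 8.55 to 8.95 on lower numbers, and 0 of the 10 were called. Over 12 marker lists of cell types and regions 4 of 66 tested markers were higher and 2 lower on higher numbers, beside 12.7% of all probe sets called. The excitatory neuron markers Neurod6 and Rprm differed by -0.29 (SE 0.09) and 0.15 (SE 0.05), the microglial receptor Cx3cr1 by 0.49 (SE 0.08), the vessel markers Pecam1 and Flt1 by 0.23 (SE 0.05) and -0.32 (SE 0.06), and Calb2 of the thalamus list by 0.19 (SE 0.05). The part of these cells in the receptor values was not tested.

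With the number set as a block the genotype and strain errors of Grm3 and Grm5 1456119_at were smaller, and no receptor was called. KO minus WT for Grm3 was then 0.01 (SE 0.09, unadjusted p = 0.912) in 129 and 0.24 (SE 0.09, unadjusted p = 0.0167, adjusted p = 0.631) in C57. Within the higher numbers alone it was 0.04 (SE 0.14) in 129 and 0.35 (SE 0.14) in C57, and within the lower numbers alone it was -0.03 (SE 0.11) in 129 and 0.10 (SE 0.11) in C57. Between WT strains, 129 minus C57 for Grm3 was 0.30 (SE 0.09, unadjusted p = 0.00311, adjusted p = 0.0808) with the block. For Grm5 1456119_at it was -0.27 (SE 0.12, limma unadjusted p = 0.0265, adjusted p = 0.279). KO minus WT for Grm4 over both strains was -0.15 (SE 0.07, limma unadjusted p = 0.0278, adjusted p = 0.916) with the block. How many of all probe sets had an unadjusted p under 0.05 with the block is not given here.

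The partners of the receptors were measured as lists of genes. The group I list held genes of Gq, phospholipase C and the postsynaptic scaffold, of which 14 of 19 were tested. The group II and III list held genes of Gi and Go, adenylyl cyclase and potassium and calcium channels, of which all 23 were tested. A further list held genes that supply and clear glutamate, of which 12 of 14 were tested. No gene of the 3 lists was called between KO and WT in either strain, beside 0.00362% of all probe sets tested in 129 and 0.105% in C57. None was called between strains in either genotype, beside 2.52% of all in WT and 3.43% in KO. At such shares few or no calls would be found in lists of this length. With sample number 12.7% of all probe sets tested were called. Of the 14 group I partners 0 rose and 3 fell, with a median of -0.08 over the list beside -0.02 over all probe sets. These were Gna11, a Gq-class alpha subunit, at -0.23 (SE 0.04), Prkcb, a protein kinase C, at -0.15 (SE 0.04), and Plcb1, a phospholipase C, at -0.13 (SE 0.04). Gnaq at -0.07 (SE 0.04) and the scaffold Homer1 at -0.05 (SE 0.05) did not pass. Of the 23 group II and III partners 2 rose and 0 fell, beside the 12.7% of all probe sets, at a list median of -0.08. Only 6 of the 23 had a positive difference, so most lay lower on higher numbers. At a limma unadjusted p under 0.05 there were 9 of the 23, beside 7219 of 27647 over all probe sets. The Go alpha subunit Gnao1 was 0.28 (SE 0.04) higher and Rgs7, which speeds the shut-off of Go, 0.21 (SE 0.03) higher. Rgs4, a further G protein regulator, was at -0.10 (SE 0.07), and Elfn2, a postsynaptic organiser of group III receptors, at -0.12 (SE 0.07), neither called. Of the 12 glutamate genes 1 rose and 0 fell, beside the same 12.7%, at a list median of 0.02. It was Slc7a11, the cystine-glutamate exchanger, at 0.44 (SE 0.07). The vesicular transporter Slc17a7 was at 0.01 (SE 0.07), and the glial transporters Slc1a2 and Slc1a3 were at 0.11 (SE 0.04, adjusted p = 0.0551) and -0.07 (SE 0.06). Folh1, the peptidase that cleaves the group II agonist N-acetylaspartylglutamate, lay below the limit for testing.

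The genes whose signals most resembled each receptor were found by Pearson correlation of residuals from the 4 group means over 37 arrays, among 12425 genes, as a description. For Grm3 they were Ccser2, Evi5 and Gprin3, with r of 0.94, 0.94 and 0.93, and these r span both number sets. Within the 18 higher-numbered arrays r was 0.72, 0.73 and 0.51, and within the 19 lower-numbered arrays 0.57, 0.43 and 0.43. The same genes were 0.81, 1.22 and 2.71 higher on higher numbers. Evi5 lies on the same chromosome as Grm3. Of the genes named next, Spcs2 and Thumpd1 lie on the chromosome of Grm5, and no other lies on that of its receptor. For Grm2 the nearest were Hid1, Ptprn and Rptor, with r of 0.82, 0.79 and 0.79, and for Grm4 they were Gsg1l, Chgb and Slc32a1, with 0.74, 0.73 and 0.71. For Grm5 (1455272_at) they were Spcs2, Fcho2 and Thumpd1, with 0.74, 0.72 and 0.70. Within the higher numbers these were 0.68, 0.60 and 0.83, and within the lower numbers 0.29, 0.47 and 0.31. For Grm7 (1443119_at) they were Tent4b, Smad1 and Tspyl3, with 0.86, 0.83 and 0.81. For Grm8 they were Dimt1, Snx2 and Jkamp, with 0.84, 0.84 and 0.82, which were 0.93, 0.92 and 0.94 within the higher numbers and 0.57, 0.61 and 0.40 within the lower. Within the number sets r lay between 0.79 and 0.84 for Grm2, between 0.48 and 0.85 for Grm4 and between 0.67 and 0.91 for Grm7. The arrays share labelling and hybridization, which such correlations include.

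Among the receptors themselves, 28 pairs of probe sets were correlated within each number set after group means were removed, 56 correlations in all. At an unadjusted permutation p under 0.05 there were 7, and none passed Benjamini-Hochberg adjustment, where the smallest value was 0.190. That was Grm2 with Grm8 on the higher numbers, at r = -0.76 (permutation p = 0.00340, n = 18) and rho = -0.70 (permutation p = 0.00681, adjusted 0.191). Without the 2 arrays farthest from the Grm2 median r was -0.68. On the lower numbers r was -0.28 for this pair (n = 19). Grm3 with Grm5 1456119_at had r = 0.60 on the higher numbers (permutation p = 0.0195, adjusted 0.248, n = 18) and 0.38 on the lower numbers (permutation p = 0.231, n = 19).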

How the data were processed

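The deposited table held log2 probe set values made by the authors; MAS5 and GCRMA are named in the submitters' processing notes, with neither version nor role, and no genome build or coordinate was used. The values had the form GCRMA writes and were used as deposited, without scaling. Of 45101 probe sets, 64 controls were left out of the tests, and symbols came from the platform annotation (34945 with 1 symbol, 932 with several, 9160 with none). limma 3.58.1 in R 4.3.3 fitted 1 mean per group to 37 arrays (lmFit, eBayes), plus a term for number set where that was tested. Permutation tests, with 100000 draws for correlations, ran in SciPy 1.17.1 and NumPy 2.4.6 under Python 3.11.15, tables were read with pandas 2.3.3, and plots were drawn with matplotlib 3.10.9. The scripts' fits were tested on simulated data. The number of arrays limits precision. Alternatives covered filters, normalization, probe set choice, variance models, array weights, the block, the middle arrays and each array left out.

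The receptors and the lists of partners and markers were chosen with earlier results of these data known. Named were all receptor probe sets, Wfs1, the 3 genes most like each receptor's brightest probe set, called list members and 10 partners whatever their result.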

Additional observations from a re-analysis of the deposited data

Results flagged for a closer look

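Grm8 (1421530_a_at) read 4.36 on C57 KO array 10, and the nearest of the other 8 C57 KO arrays read 4.99, a gap of 0.573 of the group's range where Dixon's critical value for 9 arrays is 0.493. The lowest and the highest value were checked in each of 36 groups of arrays, 9 probe sets in 4 groups. Chance flags about 1 in 20 such groups. The Grm8 value of array 10 was the only 1 flagged, which is no more than chance gives. On that array Grm2 (1435607_at) read 6.90, the highest value of its group.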

How the results depend on the processing

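The count of called receptor probe sets was 0 in every genotype comparison and every strain comparison under each alternative run, including the leave-one-out fits, which gave 0 to 0 in all 6. With sample number the count was 2, and 2 to 3 when each array was left out in turn. It was 1 with the brightest probe set per gene, because Grm5 is then read on 1455272_at alone. The step of Grm3 stayed between 0.75 and 1.16 and that of Grm5 1456119_at between 0.95 and 1.38 under the alternatives, all called, and the average of both Grm5 probe sets differed by 0.59. The adjusted p of Grm5 1455272_at was 0.0447 with the filter at the 60th percentile, 0.0420 with trend and robust variance and 0.0116 with array weights, so its call depends on these settings. It was also called in 7 of the leave-one-out fits, those without C57 KO array 3 or 10, C57 WT array 26, 29, 37 or 42, or 129 KO array 50, at adjusted p of 0.0270 to 0.0469. For Grm7 1443119_at the difference with sample number was 0.072 when the 3 probe sets of the gene were averaged, against -0.082 alone, since the average includes the dim probe set. With the middle arrays left out, the step was 0.88 for Grm3 and 1.09 for Grm5 1456119_at. The choice to divide each group still came from the earlier analysis of these arrays, so these steps are not independent of it. The actin covariate and the fit per group were chosen after seeing the data. No paired analysis was possible because no sample number occurs in more than 1 group. Intensity near the detection limit bounds what can be said of Grm7 1459532_at.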
